A study of Mus musculus with 10 samples.

Results

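The tripartite motif (TRIM) genes encode a family of proteins built on a RING finger, 1 or more B-box zinc fingers and a coiled coil, and most of them act as ubiquitin E3 ligases, the enzymes that choose which protein receives ubiquitin. Type I interferon, the cytokine released when cells sense viral nucleic acid, raises transcription of a subset of these genes, and their proteins act as virus restriction factors or tune the sensors that lead to interferon. The interferon-linked mouse genes are concentrated in an expanded cluster on chromosome 7 (Trim30, Trim12, Trim34, Trim6), while other members serve transcription, the cytoskeleton, muscle or membranes. In the gut, TRIM proteins are found both in epithelium and in immune cells.

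Members were chosen by symbol: Trim followed by a number and at most 1 letter from a to d. The pattern found 65 of 23284 features in the deposited tables. Of these, 40 lay above the floor, the constant to which low values had been raised, in both libraries of at least 1 group and were tested, out of 13051 features tested in all. Another 24 were at the floor in all 10 libraries, and Trim65, a ligase for the RNA sensor MDA5, was above it only in the first library of the miR-29a group and the first of the miR-29b group. The values are log2 values relative to a baseline of each gene, so they compare libraries for 1 gene and say nothing of which gene is more abundant.

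The samples were colorectal tissue of BALB/c mice aged 7 weeks, with 10 RNA libraries forming 5 groups of 2. Normal mice received no treatment and were sampled on day 0. The other 4 groups received 2% dextran sodium sulfate (DSS), which provokes colitis, and tail vein injections on days 1 to 3 of a microRNA carried by sCA. The injected microRNA was a negative control (NC-miR, tissue taken on day 2 or on day 4), miR-29a (day 4) or miR-29b (day 4). The labels give the same 3 days of injection for the day 2 group, and a protocol shared by all groups gives collection on day 4, so the day 2 group rests on its sample titles and descriptions. Because the normal mice were given no DSS and no injection and were sampled earliest, those 3 differences cannot be told apart in any comparison with them. Nothing in the labels says that the 2 libraries of a group came from separate animals, so p-values measure the spread between these samples, which may be technical. Read counts were not given and depth is unknown. Between 12679 and 12940 features lay above the floor per library. Tissue RNA was used whole, so fewer cells of a type and less RNA per cell cannot be told apart.

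The sequences around the start sites of the interferon-linked members are shown first, as a description. Their part in the values below was not tested. The interferon-stimulated response element (ISRE), a site bound by IRF proteins, was searched by its core, GAAA and a second GAAA after any 2 bases (TTTC and TTTC on the other strand), in RefSeq windows from 250 bases before to 50 bases after each start (GRCm38.p6). Windows were found for 50 of the 65 genes. The core was present in 8 of these 50 (16.0%), against 3.99% of all 27025 symbols with a window. Among the tested members it was in 7 of 32 (21.9%), against 3.83% of the 9446 tested features with a window. Among the 8 tested members of the chromosome 7 list it was in 5 (62.5%), and not in Trim6, Trim34b or Trim68. The 5 include the neighbouring paralogues Trim30a and Trim30d. In each 30-base stretch below, written 5′ to 3′ on the strand of the gene, capitals mark the core, or 2 overlapping cores.
Trim30a: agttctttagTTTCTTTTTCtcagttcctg
Trim30d: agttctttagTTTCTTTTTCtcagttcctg
Trim34a: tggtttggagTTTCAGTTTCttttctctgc
Trim12c: agagttgtggTTTCTGTTTCatttccagct
Trim21: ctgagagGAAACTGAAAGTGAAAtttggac
Trim26: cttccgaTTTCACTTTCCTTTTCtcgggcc

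The Trim30a stretch (chr7:104465210-104465239, minus strand) and the Trim30d stretch (chr7:104507871-104507900, minus strand) were identical over all 30 bases. RefSeq gives Trim30a more than 1 start. The core shown lay at -36 to -27 from the one upstream, and another copy lay at 3 to 12 from a start inside the gene (chr7:104446104-104446133). In Trim30d it lay at -41 to -32. It lay at -29 to -20 in Trim12c (chr7:104353359-104353388, minus strand), and just inside the transcript, at 11 to 20, in Trim34a (chr7:104244457-104244486, plus strand). Trim21 (chr7:102565447-102565476, minus strand) and Trim26 (chr17:36836979-36837008, plus strand) held 2 overlapping cores each. Trim12a, which is at the floor in every library, and Trim2, a neuronal ligase that is not interferon-linked, held the core as well. A match is a description of these letters, and binding was not measured here.

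How did the TRIM genes differ between normal colorectum and the NC-miR group on day 2? Trim30a, Trim30d and Trim34a, all of the chromosome 7 cluster, rose. They were the 3 of 40 tested members called (7.5%), against 1.22% of all 13051 features called in either direction and 1.07% called higher. A call is an adjusted p under 0.05 in limma, a linear model fitted over all features tested. No member was called lower, against 0.153% of all features. Before adjustment, 16 members had p under 0.05, 12 of them higher and 4 lower, against 15.2% of all features. The median difference of the 40 members was 0.19 on the log2 scale, beside -0.06 for all features. The main fit used the values as deposited, without centring the libraries. Library medians over the tested features were 0.0302 and 0.0284 in normal and -0.043 and -0.0037 on day 2. The differences and the shares without overlap include this shift. The 2 groups did not overlap, with day 2 higher, for 18 of 40 members (45%, against 18.6% of all features), and with day 2 lower for 11 (27.5%, against 30.5%). Those 11 include Trim45, which had floor values in 5 libraries. Among these were the first normal library (-0.15) and the day 2 libraries (-0.22 and -0.18). Such values differ only by a constant of each library, so the lack of overlap for Trim45 is not a measured difference.

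**Figure D1:**
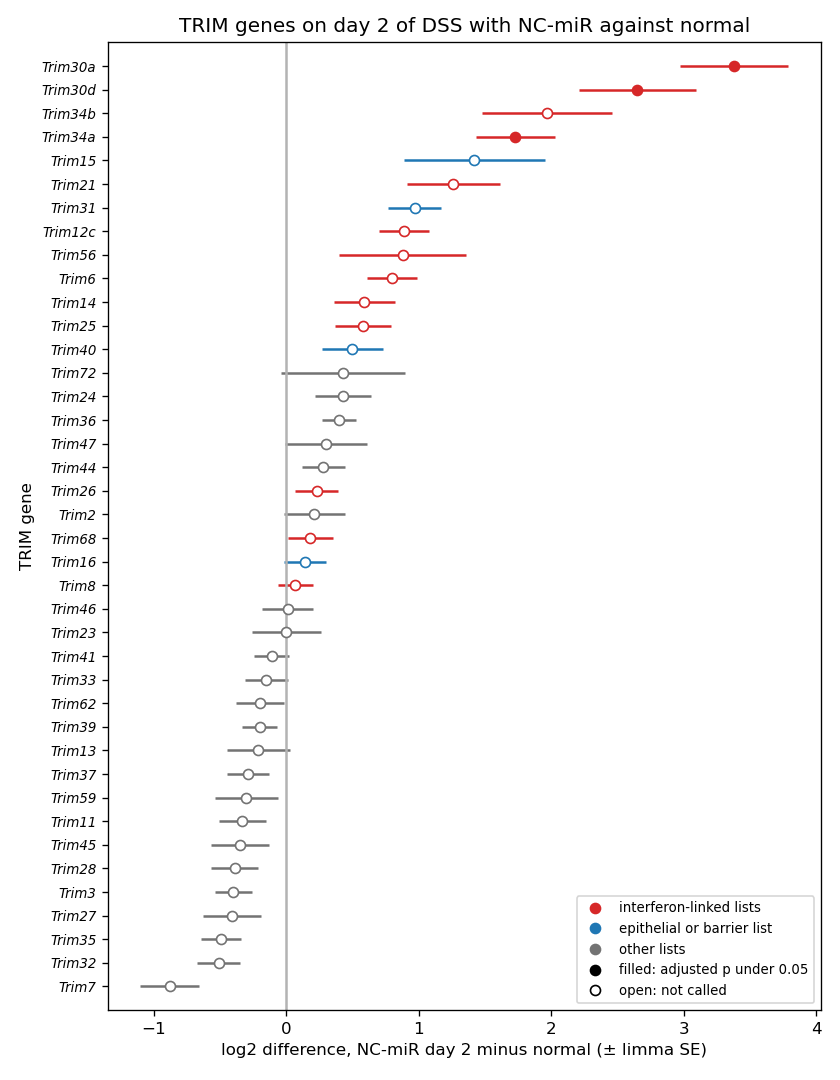
Log2 difference between the NC-miR day 2 group and normal (x axis, points with limma standard errors, n = 2 libraries per group) for the 40 tested TRIM genes (y axis, ordered by difference), coloured by gene list and filled where called. The 3 filled points, Trim30a, Trim30d and Trim34a, lie at the top with Trim34b, and Trim7 lies lowest at -0.88.

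Trim30a (chromosome 7, 104409025 to 104465193, mm10) encodes an interferon-induced protein known to restrain NF-kB signalling downstream of Toll-like receptors. Its log2 values were -2.04 and -1.59 in normal, 2.18 and 0.94 in NC-miR on day 2, and 0.67 and -0.10 in NC-miR on day 4. They were -0.59 and -0.90 with miR-29a and -0.78 and -0.49 with miR-29b. Every DSS library was thus above both normal libraries, both day 2 libraries were above all others, and the miR-29a and miR-29b libraries overlapped. On day 2 Trim30a rose 10.4-fold (log2 difference 3.38 ± 0.41, SE, n = 2 libraries per group, limma adjusted p = 0.0085). On day 4 with NC-miR the difference from normal was 2.10 ± 0.41 with limma adjusted p = 0.0801, which is not a call. With miR-29a it was 1.07 and with miR-29b 1.18, also not called (limma adjusted p = 0.383 and 0.226). The day 2 call was lost without the first or the second normal library (limma adjusted p = 0.0764 and 0.0833), in a fit to only the 4 libraries compared (0.0785) and without the filter on low values (0.0855). It stood without either day 2 library.

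Trim30d (chromosome 7, 104470014 to 104507849) is the neighbouring paralogue of Trim30a. Both normal libraries were at its floor (-1.26 and -1.25), and it reached 1.93 and 0.86 on day 2. NC-miR on day 4 gave 0.58 and -0.62, miR-29a -1.09 and -0.57, and miR-29b -0.92 and -0.57. The day 2 libraries were again the highest, and the day 4 groups overlapped with each other. On day 2 Trim30d rose at least 6.28-fold (at least 2.65 ± 0.44 on the log2 scale, limma adjusted p = 0.0328). Values at a floor hardly vary between libraries, which may make this p too small. The call was lost without the first day 2 library (2.12, limma adjusted p = 0.181), without either normal library (0.157 and 0.211), without any 1 of the miR-29a or miR-29b libraries (0.0556 to 0.0659), without the filter (0.1) and in the fit to 4 libraries (0.0845). The cluster holds near-identical copies, so reads may have been shared between Trim30a, Trim30b and Trim30d, between Trim12a and Trim12c and between Trim34a and Trim34b, and their separate values are uncertain. Trim30b and Trim12a were at the floor in every library. Trim5 and Trim30c were not analysed here.

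Trim34a (chromosome 7, 104244457 to 104262234), a relative of the human antiviral gene TRIM34, had -0.90 and -0.65 in normal and 1.44 and 0.47 on day 2. NC-miR on day 4 gave 0.09 and 0.05, miR-29a -0.54 and -0.03, and miR-29b -0.45 and -0.63. Normal was the lowest group for this gene, and its 2 libraries lay below all others by a narrow margin to miR-29b. On day 2 Trim34a rose 3.31-fold (1.73 ± 0.30, limma adjusted p = 0.039). This call stood in 5 of 17 alternatives. It was lost without any 1 library other than the second of day 2 (limma adjusted p = 0.0585 to 0.207), without the filter (0.1) and in the fit to 4 libraries (0.163). Its copy Trim34b spread widely on day 2, with 1.79 and 0.13 against -0.89 and -1.13 in normal, and was not called (1.97 ± 0.49, limma adjusted p = 0.121).

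**Figure D2:**
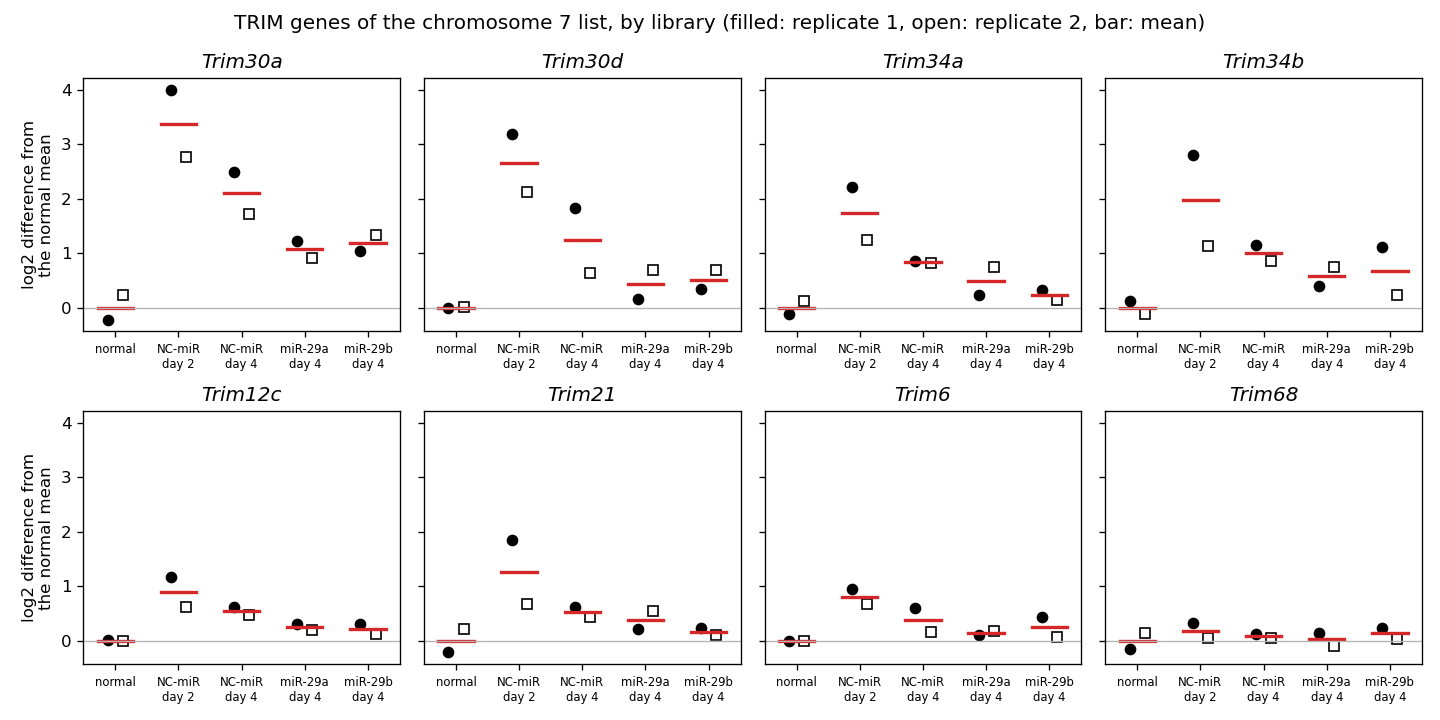
Log2 difference of each library from the normal mean (y axis) in the 5 groups (x axis) for the 8 tested members of the chromosome 7 list, with filled circles for replicate 1, open squares for replicate 2 and bars for the group mean. Both day 2 libraries lie above all others for Trim30a, Trim30d and Trim34a, and the first day 2 library lies above the second in all 8 panels.

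The other members of the chromosome 7 list were higher by less or varied more. Trim12c, a mouse relative of human TRIM5, had -0.40 and -0.42 in normal and 0.76 and 0.20 on day 2 (0.89 ± 0.19, limma adjusted p = 0.0724). Trim21, the cytosolic receptor for antibody bound to virus, had -0.67 and -0.24 against 1.40 and 0.21 (1.26 ± 0.35, limma adjusted p = 0.151). Trim6, which makes free ubiquitin chains that activate the kinase IKK-epsilon, had -0.27 in both normal libraries against 0.67 and 0.40 (0.80 ± 0.19, limma adjusted p = 0.108). Day 2 and normal did not overlap for any of these, but none was called. Trim68 overlapped with normal (0.18 ± 0.17). Over the 8 tested members of the list, with Trim30d at its lower bound, the median difference on day 2 was 1.49, with 3 called (1.07% of all features were called higher), 7 not overlapping (18.6% of all features, higher) and 8 of 8 above 0 (5375 of 13051 features). The median was 0.69 with NC-miR on day 4, 0.40 with miR-29a and 0.25 with miR-29b, and none of the 8 was called in those groups.

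The interferon-linked members outside chromosome 7 differed less. None of the 5 tested was called in any comparison, and their median difference from normal was 0.58 on day 2, 0.17 with NC-miR on day 4, 0.14 with miR-29a and 0.11 with miR-29b. Trim25, the ligase that ubiquitinates the RNA sensor RIG-I, had -0.36 and -0.28 in normal against 0.46 and 0.06 on day 2 (0.58 ± 0.21, limma adjusted p = 0.256). Trim14, an adaptor of the mitochondrial antiviral protein MAVS, had -0.40 and -0.01 against 0.64 and 0.13 (0.59 ± 0.23, limma adjusted p = 0.269). The Trim14 values on day 4 with NC-miR, -0.19 and -0.15, lay between the 2 normal values. Trim56, a ligase in cytosolic DNA and RNA sensing, varied as much between replicates as between groups, with -1.04 and 0.10 in normal and 0.19 and -1.21 with miR-29b. Trim26 was 0.23 ± 0.16 and Trim8 0.07 ± 0.13 above normal on day 2. Trim38, which limits signalling from Toll-like receptors, was at the floor in all 10 libraries.

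The mean log2 difference from normal over the 13 tested interferon-linked members gives each library 1 value. The NC-miR libraries of day 2 had means of 1.49 and 0.85 and those of day 4 had 0.78 and 0.45. The means were 0.26 and 0.35 with miR-29a and 0.42 and 0.20 with miR-29b, beside -0.10 and 0.10 in normal. The order of the groups was therefore NC-miR day 2, NC-miR day 4, then the 2 miR-29 groups, which overlapped with each other, then normal. Replicates of the day 2 group differed more than those of other groups. The first library exceeded the second for 11 of the 13 genes on day 2 and for 12 of 13 on day 4 with NC-miR. Without the second day 2 library, 6 members were called (Trim12c, Trim21, Trim30a, Trim30d, Trim34a and Trim34b), and without the first only Trim30a was.

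The other genes of interferon signalling and of ubiquitin transfer were read in the same fit. Of 30 type I interferon response genes, 25 were called higher on day 2 (median 3.14), 8 with NC-miR on day 4 (1.41), 1 with miR-29a (0.66) and 3 with miR-29b (1.01), and none lower in any of the 4. Of all features, 1.07%, 0.268%, 0.345% and 0.337% were called higher in these comparisons. The lists overlap: 4 of these 30 genes are also in the RIG-I and MAVS list and 3 in the list of conjugating enzymes below. Of 13 genes of RIG-I and MAVS signalling, which several TRIM ligases act on, 4 rose on day 2, and all 4 are among the 25 just counted. These were Irf7, the transcription factor of the interferon feedback loop (2.97 ± 0.29, limma adjusted p = 0.00432), and the RNA sensors Ifih1 (1.52 ± 0.19, 0.00939), Dhx58 (2.34 ± 0.37, 0.0272) and Ddx58 (1.92 ± 0.34, 0.0422). On day 4 with NC-miR Irf7 alone of the 13 was called (1.88 ± 0.29, limma adjusted p = 0.0475). Mavs itself differed by -0.02 ± 0.14 on day 2.

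Of 18 genes for ubiquitin or ISG15 conjugation, 5 were called higher on day 2, against 1.07% of all features. All 5 were of the ISG15 branch, and 3 of them (Isg15, Herc6 and Usp18) are among the 25 counted above. The 5 were the modifier Isg15 (5.10 ± 0.45), its ligase Herc6 (3.01 ± 0.27), its E2 enzyme Ube2l6 (2.27 ± 0.29), its protease Usp18 (4.59 ± 0.62) and its E1 enzyme Uba7 (1.22 ± 0.22), with limma adjusted p from 0.00275 to 0.0471. The E2 enzymes that commonly serve RING ligases gave no call: Ube2d3 differed by 0.02 ± 0.12, Ube2n by -0.17 ± 0.13 and Ube2d1 by -0.34 ± 0.14. As another set of RING-containing ligases, 62 tested genes named Rnf were read beside the TRIM genes. None of the 62 was called in any of the 8 comparisons, their median difference on day 2 was -0.07, and 8 of them had an unadjusted p under 0.05 there, against 15.2% of all features. TRIM proteins whose symbols fall outside the pattern gave no call either. Pml, the organizer of interferon-responsive nuclear bodies, differed by 0.61 ± 0.27 on day 2 (limma adjusted p = 0.336), Mid1 by -0.19 and Mid2 by 0.06, while Mefv and Cmya5 were at the floor in all libraries.

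The pattern of Trim30a over the 10 libraries was compared with that of every tested feature by Pearson correlation, as a description. The 5 features outside the family with the highest r were Herc6 (0.991), Parp9 (0.984), Ifi44 (0.981), Nampt (0.979) and Gm14446 (0.978). Inside the family the order was Trim12c (0.96), Trim30d (0.95), Trim34a (0.93), Trim6 (0.91) and Trim21 (0.89). The lowest values were those of Trim35 (-0.82) and Trim32 (-0.79). The points are 5 groups of 2 libraries, so these values mostly restate the order of the groups.

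**Figure D3:**
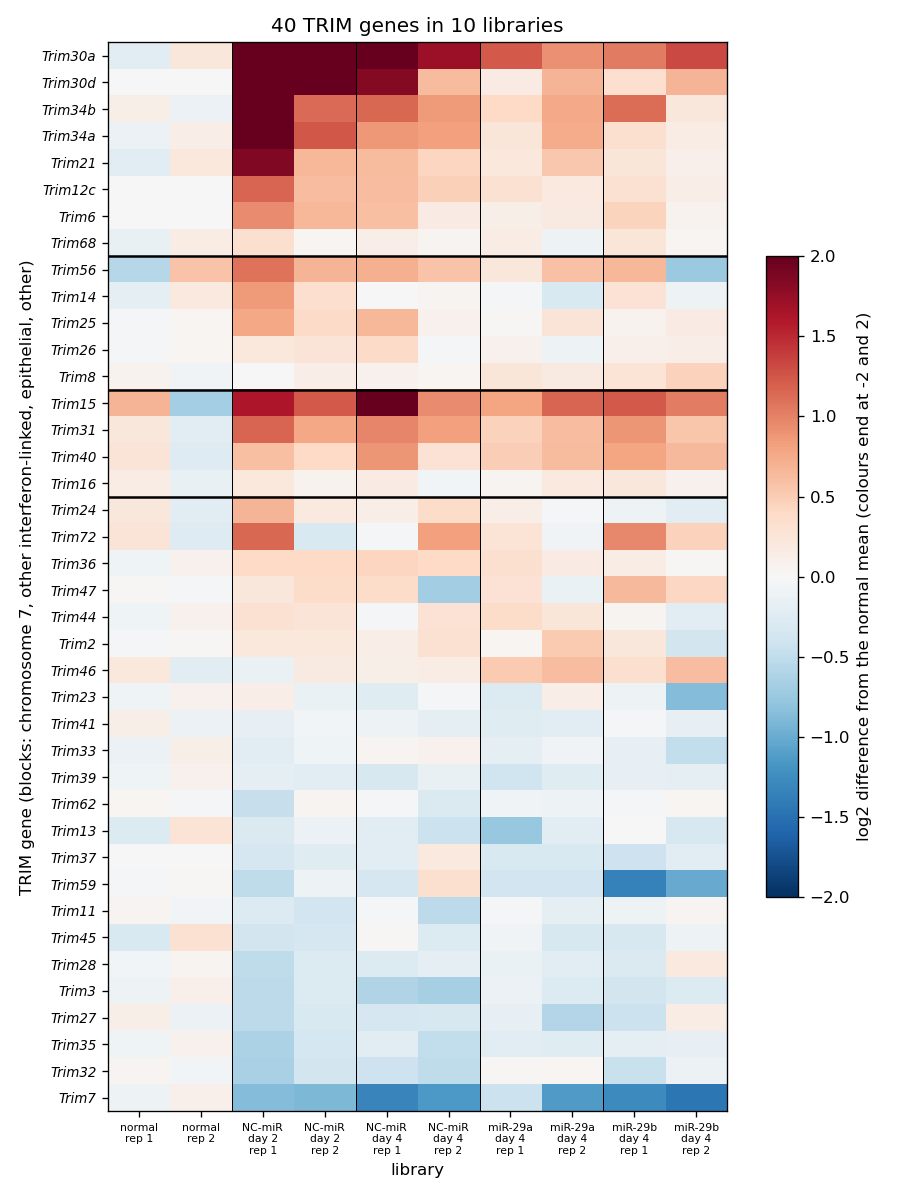
Log2 difference from the normal mean (colour, ending at -2 and 2) for the 40 tested TRIM genes (rows, in blocks for the chromosome 7 list, the other interferon-linked genes, the epithelial list and all others) in 10 libraries (columns). The upper rows are red in the day 2 libraries and paler on day 4, Trim15, Trim31 and Trim40 are red in every DSS library, and Trim7 is blue in all 8.

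Markers of other cell types were read in the same libraries. All 8 tested B and plasma cell markers, of 9 found, were below normal in each DSS group (group medians -1.03 to -1.81, library medians -0.71 to -2.07). Of these, 1 was called lower, with miR-29b, where 0.153% of all features were called lower. The 11 tested monocyte and macrophage markers had library medians from -0.20 to 0.43 in the DSS groups. The 5 tested markers of plasmacytoid dendritic cells, a source of interferon, had library medians from -0.05 to 0.60. Of these 5, Bst2, itself an interferon response gene, was called on day 2 (2.81 ± 0.25, limma adjusted p = 0.00275). In that comparison 1.07% of all features were called higher. Adipocyte markers ran from 0.04 to 1.59 in the DSS libraries and stood at -0.77 and 0.77 in the 2 normal ones. The 6 tested T and NK cell markers had library medians from -0.11 to 0.73 in the DSS groups. Their group medians were 0.24 on day 2, 0.17 with NC-miR on day 4, 0.57 with miR-29a and 0.60 with miR-29b. Library medians there ran from -0.37 to 0.23 for smooth muscle and from -0.50 to 0.09 for neuron and glia markers. For skeletal muscle they ran from -0.22 to 0.63, beside 0.57 and -0.57 in normal. The part of these differences in the TRIM values was not tested. The 9 tested colonic epithelium markers, which check the labelled tissue, were all detected, with library medians within -0.11 and 0.77. Above normal were 7 of the 9 on day 2 (median 0.11) and all 9 in each day 4 group (medians 0.32 with NC-miR, 0.30 with miR-29a and 0.70 with miR-29b). Of these markers 1 was called higher with miR-29a and 2 with miR-29b (0.345% and 0.337% of all features), and their part in the TRIM values that follow was not tested.

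Of the 4 tested members of the list of epithelial and barrier genes, none was called in any comparison. For 3 of them, Trim31, Trim15 and Trim40, all 8 DSS libraries were above both normal ones. The same held for Trim6, Trim12c, Trim30a, Trim30d, Trim34a and Trim34b of the chromosome 7 list. The share of all features for which it held was not computed. In a single comparison with normal, of 2 libraries against 2, 18.6% to 21.3% of all features were higher without overlap. Trim31, Trim15 and Trim40 lie in a block of TRIM genes on chromosome 17, in the region of the major histocompatibility complex. The block also holds Trim10, which was at the floor in all libraries, and Trim26, which differed from normal by 0.23, 0.17, -0.01 and 0.11 on day 2, with NC-miR on day 4, miR-29a and miR-29b. Trim31, a gut epithelial ligase that promotes MAVS aggregation, had -0.33 and -0.77 in normal, 0.61 and 0.23 on day 2 and 0.42 and 0.27 with NC-miR on day 4. It had -0.09 and 0.06 with miR-29a and 0.33 and 0.00 with miR-29b. The miR-29a libraries were the lowest of the DSS groups on average. The differences from normal were 0.97 ± 0.20 on day 2 (limma adjusted p = 0.0742), 0.90 on day 4 with NC-miR (0.119), 0.54 with miR-29a (0.388) and 0.71 with miR-29b (0.167), none of them called.

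Trim15, a protein of focal adhesions, had the widest replicate spread of the family in the normal and the NC-miR day 4 groups. It was at -0.29 and -1.65 in normal, 0.65 and 0.25 on day 2, 1.46 and -0.02 with NC-miR on day 4, -0.18 and 0.20 with miR-29a, and 0.26 and 0.06 with miR-29b. The largest difference from normal, 1.69 ± 0.53 with NC-miR on day 4, was not called (limma adjusted p = 0.2). The first NC-miR day 4 library, in which Trim15 was highest, also had squamous epithelium markers at a median of 5.51 above normal (3 of 10 markers tested), against -0.31 to 0.80 in the other DSS libraries. The part of this in the Trim15 value was not tested. Trim29, a TRIM gene of squamous epithelium, was at the floor in that library as in all others.

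Trim40, a gastrointestinal member known to restrain NF-kB, had -0.18 and -0.71 in normal, and its lowest DSS value was -0.16. Its differences from normal ran from 0.50 on day 2 to 0.72 with miR-29b (limma adjusted p = 0.36 and 0.208). With Trim16, a sensor of damaged lysosomes, the 4 tested members of the list had a median difference of 0.74 on day 2, 0.74 with NC-miR on day 4, 0.55 with miR-29a and 0.72 with miR-29b. Trim50, a gastric member, was at the floor throughout.

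Trim7 was the member lowest against normal in all 4 comparisons with it. It encodes a ligase that binds glycogenin, the primer of glycogen synthesis, and lies on chromosome 11 (48826140 to 48852209). Its values were 0.88 and 1.09 in normal, 0.12 and 0.09 on day 2, -0.34 and -0.16 with NC-miR on day 4, 0.55 and -0.15 with miR-29a, and -0.29 and -0.46 with miR-29b. Both normal libraries were above all 8 DSS libraries, and the miR-29a replicates were farther apart than any other pair of this gene. With miR-29b Trim7 fell 2.56-fold from normal (log2 difference -1.36 ± 0.22, limma adjusted p = 0.0492). It was the only member called in that comparison (2.5% of 40, against 0.49% of all features and 0.153% called lower). The differences in the other groups were -0.88 on day 2, -1.23 with NC-miR on day 4 and -0.78 with miR-29a, with limma adjusted p = 0.121, 0.0715 and 0.246. The miR-29b call sits at the threshold and stood in 4 of 17 alternatives. It was lost without any 1 library of the normal, NC-miR or miR-29b groups (limma adjusted p = 0.0693 to 0.292), with centring on the median (0.0531) or quantile normalization (0.0686), without the filter (0.129) and in the fit to the 4 libraries compared (0.0828). On day 4 with NC-miR, Trim7 passed the threshold when either miR-29a library was left out (limma adjusted p = 0.0357). A predicted gene, Gm12184, overlaps Trim7 on the opposite strand in GENCODE M21, and whether counting used strand is not given in the sources used here. The same holds for Trim14 with Nans, Trim28 with Zbtb45, Trim32 with Astn2, Trim41 with Rack1, Trim46 with Krtcap2 and Trim2 with Gm6525, while Trim16 overlaps Fbxw10 on its own strand.

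With NC-miR on day 4, none of the 40 members was called against normal (0.383% of all features were), and 11 had an unadjusted p under 0.05 (15.2% of all features), 8 higher and 3 lower. The groups did not overlap for 14 members that were higher (35.0%, against 20.4% of all features) and for 7 that were lower (17.5%, against 27.8%). With miR-29a none was called (0.421% of all features, 0.0766% lower), and 6 members had an unadjusted p under 0.05 (11.0% of all features). Members that did not overlap with normal numbered 14 higher and 10 lower with miR-29a (21.0% and 26.0% of all features), and 15 higher and 9 lower with miR-29b (21.3% and 25.3%). These comparisons share the 2 normal libraries. The medians over the 40 members were 0.08, 0.06 and 0.04 for NC-miR on day 4, miR-29a and miR-29b, beside -0.03, -0.02 and -0.03 for all features.

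Between day 2 and day 4 of NC-miR, none of the 40 members was called (0.0153% of all features were, 0.00766% in each direction). The 4 with an unadjusted p under 0.05, against 6.41% of all features, were all lower on day 4. They were Trim30d (-1.42 ± 0.44), Trim30a (-1.28 ± 0.41), Trim34a (-0.88 ± 0.30) and Trim14 (-0.55 ± 0.23), with limma adjusted p from 0.631 to 0.766. These sizes moved with single libraries. Without the first day 2 library Trim30a was at -0.66, Trim34a at -0.40 and Trim14 at -0.30, and without the second they were at -1.90, -1.37 and -0.80. Trim30d ran from -2.01 without the first day 4 library to -0.82 without the second. All 8 tested members of the chromosome 7 list were lower on day 4, with a median of -0.81, and 6 of them did not overlap between the days. Of all 13051 features, 5909 were lower on day 4. The 30 type I interferon response genes were all lower too, with a median of -1.21. Of the 40 members, 9 were lower without overlap (22.5%, against 16.1% of all features) and 3 higher (7.5%, against 19.8%). The 3 higher include Trim45, whose day 2 values were floor values, so its difference of 0.23 is a lower bound. NC-miR on day 4 was the only group with Trim45 above its floor in each library. Trim45 was therefore tested only because of the group in which it counts as higher. Over the 40 members the median was -0.07, beside 0.02 for all features. In the other direction the members of smallest p were Trim37, Trim33 and Trim59, at 0.29, 0.23 and 0.29. Tissue taken on day 2 precedes the injection of day 3, so the day and the number of injections cannot be told apart.

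Of the other members with roles outside interferon signalling, none was called in any comparison. Among the transcriptional co-regulators, Trim28, the corepressor that works with KRAB zinc finger proteins, differed from normal by -0.39 ± 0.18 on day 2. Trim24, a nuclear receptor co-regulator, differed by 0.43 ± 0.21 and Trim33, a ligase of the SMAD pathway, by -0.15 ± 0.16. Trim66 was at the floor. Among the genes with NHL repeats, Trim32, a ligase mutated in limb-girdle muscular dystrophy, had 0.35 and 0.25 in normal, -0.35 and -0.07 on day 2, -0.11 and -0.21 with NC-miR on day 4, 0.33 and 0.34 with miR-29a, and -0.15 and 0.18 with miR-29b. The miR-29a libraries thus lay at the level of normal and above the other DSS libraries. Trim32 differed from normal by -0.51 ± 0.16 on day 2 (limma adjusted p = 0.186). Trim3, a neuronal member of the same subfamily, was lowest with NC-miR on day 4 (-0.64 ± 0.14 from normal, limma adjusted p = 0.113). Trim35 differed by -0.49 ± 0.15 on day 2 (limma adjusted p = 0.192) and Trim27 by -0.41 ± 0.22.

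The microtubule and muscle members were mostly undetected: 6 of 8, among them the muscle ligase Trim63 and the neuronal Trim9, were at the floor in all libraries. Trim36 was at 0.40 ± 0.13 above normal on day 2 and 0.41 with NC-miR on day 4 (limma adjusted p = 0.197 for both). Trim46, an organizer of axonal microtubules, was highest with miR-29a, at 0.33 and 0.42 against 0.01 and -0.40 in normal (0.57 ± 0.19, limma adjusted p = 0.318). Trim72, the muscle membrane repair protein, was at the floor in 2 libraries and ranged from -0.65 to 0.81 within the day 2 group alone. Trim13, a ligase of the endoplasmic reticulum membrane, was lowest in the first miR-29a library (-0.56), and Trim23, which carries a GTPase domain of the ARF family, in the second miR-29b library (-0.73). Trim39 differed from normal by -0.32 ± 0.13 with miR-29a (limma adjusted p = 0.423).

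Did delivery of miR-29a or miR-29b change the TRIM genes relative to NC-miR on the same day? No member was called in either comparison, and neither was any of the 13051 features (0.0% in both). With each miRNA, 4 members reached p under 0.05 before adjustment, against 7.63% of all features with miR-29a and 12.5% with miR-29b. Trim30a was lower by 1.03 ± 0.41 on the log2 scale with miR-29a (-1.03, limma adjusted p = 0.639) and by 0.92 with miR-29b (-0.92, limma adjusted p = 0.401), and its miR-29 libraries did not overlap with NC-miR in either case. Trim30d was at -0.81 and -0.73. Both genes were higher in the first NC-miR day 4 library, the one with high squamous markers, than in the second, and the part of those markers was not tested. Without that first library Trim30a was at -0.64 with miR-29a and -0.53 with miR-29b, and Trim30d at -0.21 and -0.13. Without the second Trim30a was at -1.42 and -1.31, and Trim30d at -1.41 and -1.32. All 8 tested chromosome 7 members were below NC-miR with miR-29a (median -0.32) and 7 of 8 with miR-29b (median -0.35). In each, 4 of the 8 did not overlap. Of all 13051 features, 6081 were below NC-miR with miR-29a and 6130 with miR-29b. Of the 30 type I interferon response genes, 30 were below it with miR-29a (median -0.78) and 27 with miR-29b (median -0.45). Both comparisons share the 2 NC-miR libraries of day 4. Over the 40 members the medians were -0.12 and -0.10, beside 0.02 and 0.02 for all features. Members below NC-miR without overlap numbered 12 of 40 with miR-29a (19.3% of all features) and 9 of 40 with miR-29b (22.5%, against 19.5%). Members above it without overlap numbered 5 with each (12.5%, against 22.4% and 22.7% of all features).

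Among single members, Trim59 had the smallest p with miR-29b. It encodes a membrane-anchored ligase, and its values were 0.23 and 0.28 in normal, -0.25 and 0.16 on day 2, -0.08 and 0.57 with NC-miR on day 4, -0.13 in both miR-29a libraries, and -1.10 and -0.76 with miR-29b. The miR-29b libraries were below all 8 others. Trim59 differed by -1.17 ± 0.24 from NC-miR (limma adjusted p = 0.303), by -1.18 from normal (limma adjusted p = 0.0829) and was 0.80 higher with miR-29a than with miR-29b (limma adjusted p = 0.665). None of these was called. With miR-29a the members of smallest p above NC-miR were Trim32 (0.49 ± 0.16), Trim3 (0.44 ± 0.14) and Trim46 (0.44 ± 0.19). Those above it with miR-29b were Trim8 (0.29), Trim47 (0.70) and Trim3 (0.32). Trim36 (-0.33) and Trim33 (-0.40) were among those below it with miR-29b, and Trim37 (-0.30) among those with miR-29a. Trim47 rested on 1 library, since the second NC-miR day 4 library was at -0.90 and the first at 0.17, and without the second the difference was 0.17. Trim47 and Trim65 overlap on the same strand.

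Between miR-29a and miR-29b no member was called, nor any feature (0.0%), and 3 members had an unadjusted p under 0.05 (7.43% of all features). They were Trim59, Trim7 (0.57 ± 0.22) and Trim44 (0.38 ± 0.16), all higher with miR-29a, with limma adjusted p from 0.665 to 0.67. Without overlap, 6 members were higher with miR-29a (15.0%, against 20.3% of all features) and 9 with miR-29b (22.5%, against 19.7%). In the direction of miR-29b the smallest p values were those of Trim47 (-0.46), Trim13 (-0.33) and Trim72 (-0.61).

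Mature miR-29a and miR-29b share their seed, bases 2 to 8, shown in capitals in the mouse RefSeq sequences. The sequences injected are not given in the sources used here.
miR-29a-3p: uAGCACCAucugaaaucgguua
miR-29b-3p: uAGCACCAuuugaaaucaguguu

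The match to this seed, TGGTGCT, was searched on the sense strand of the longest annotated 3′ UTR of each gene (GENCODE M21), a comparison added after the values had been seen. It was in 6 of the 40 tested members (15.0%), against 16.5% of the 11618 tested features with a 3′ UTR. The members were Trim2 (2 matches), Trim25, Trim27, Trim37, Trim56 and Trim62. The site of Trim27 is followed by an A, which Argonaute is known to bind, and those of Trim25 and Trim56 belong to interferon-linked members. They are shown within 30 bases of the mRNA, with the match in capitals.
Trim27: aaggtctctctTGGTGCTaggtgcatatat
Trim25: tatcatctcttTGGTGCTggggtctgaatc
Trim56: taagatccacgTGGTGCTgattaaggcttg

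The difference between members with and without a match was not tested. Against NC-miR, the 6 had a median of -0.13 with miR-29a and -0.27 with miR-29b, and 4 of 6 were below 0 in each. The 34 without a match had medians of -0.12 and -0.07, with 22 and 18 of 34 below 0. Trim27 differed from NC-miR by -0.04 ± 0.22 with miR-29a and 0.19 with miR-29b. Trim25 differed by -0.22 and -0.25, Trim56 by -0.24 and -0.67, Trim37 by -0.30 and -0.32, Trim2 by 0.07 and -0.29, and Trim62 by 0.08 and 0.16. Some of these differences rested on 1 library. The miR-29b values of Trim56 were 0.19 and -1.21, and Trim2 was at 0.01 without the second miR-29b library. Without the first NC-miR day 4 library Trim25 was at 0.06 with miR-29a and 0.04 with miR-29b. Trim37 stayed below NC-miR with any 1 library left out. Trim30a and Trim59, whose differences were larger, have no match in the UTR searched.

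**Figure D4:**
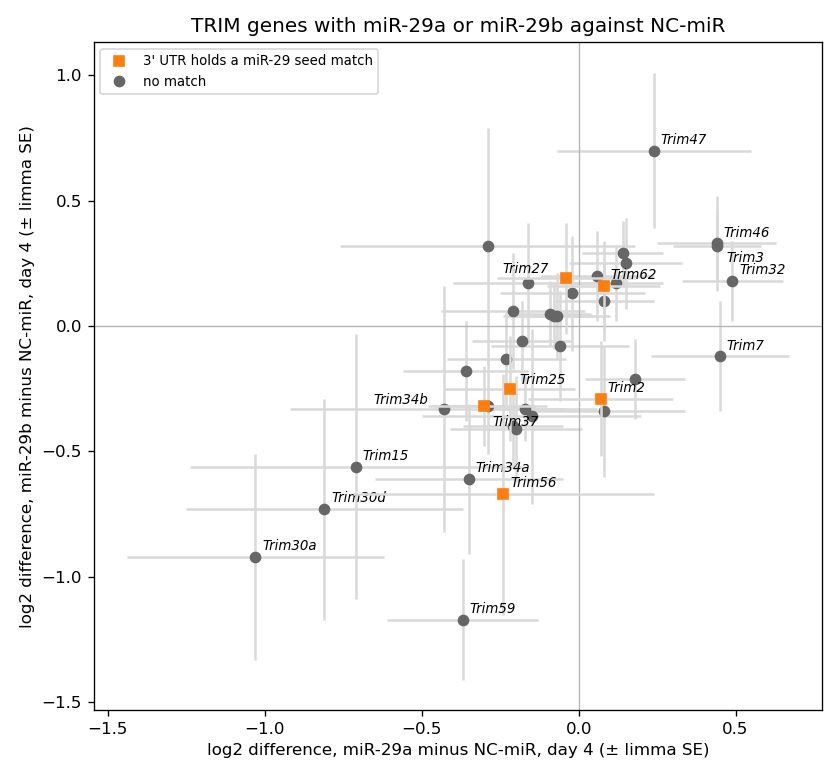
Log2 difference from NC-miR on day 4 with miR-29a (x axis) and miR-29b (y axis) for the 40 tested TRIM genes, with limma standard errors and n = 2 libraries per group. Both axes use the same 2 NC-miR libraries. Orange squares, the 6 genes with a miR-29 seed match, lie among the grey circles. Trim30a (-1.03 and -0.92) lies farthest to the left, followed by Trim30d (-0.81 and -0.73) and Trim15 (-0.71 and -0.56). Trim59 (-0.37 and -1.17) lies lowest. The place of Trim15 rests on the first NC-miR day 4 library, without which it was at 0.03 and 0.18.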

How the data were processed

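The 10 deposited tables give 1 value per feature in a column headed FPKM per the file headers. The deposited values are log2 values relative to a baseline of each gene. The log base was checked by taking distances above a gene's floor as powers of 2: in 9 libraries 98.5% to 99.6% fell on a grid of 6 significant digits (17.5% to 21.7% with base e), and in the first normal library, which enters every comparison with normal, 24.4% did (23.5% with base e). The check therefore does not settle the base in that library, whose values were taken as log2 like the rest. TopHat2 2.0.13, Bowtie2 2.2.3, SAMtools 0.1.19, Cuffnorm 2.2.1 and mm10 are named in the submitters' processing notes. After subtraction of each library's most frequent value, libraries tied at a feature's lowest value were read as being at its floor, which held for 10344 to 10605 features per library.

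limma 3.58.1 (R 4.3.3) fitted 5 group means to all 10 libraries (5 residual and 3.26 prior degrees of freedom, no trend) over the 13051 features that both libraries of some group held above it. All p are 2-sided and Benjamini-Hochberg adjusted over these features. Errors are limma standard errors. A second promoter motif searched in the same windows is not reported here. The script was tested on simulated data. The members, gene lists and naming rule (every called member, the 3 of smallest p per direction and comparison, a fixed set of known members, up to 4 per pathway list and 5 features most like Trim30a) were chosen with earlier results of these data known. Alternatives were other filters, scalings, samples and moderation, a replicate block and leaving out each library.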

Additional observations from a re-analysis of the deposited data

How the results depend on the processing

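The count of 3 called members on day 2 was 0 without the filter on low values and 0 in the fit to only the 4 libraries compared, and ran from 0 to 6 when 1 library was left out. It was 0 without either normal library, 1 without the first day 2 library or any miR-29a or miR-29b library, and 6 without the second day 2 library. For NC-miR on day 4 against normal, leaving out 1 library gave 0 to 1 (Trim30a without either day 2 library, Trim7 without either miR-29a library). For miR-29b against normal the count of 1 was 0 without the filter, with centring on the median, with quantile normalization, in the fit to the 4 libraries and with the replicate block, and 0 to 1 when 1 library was left out. With the replicate block the day 2 call of Trim34a was also lost (limma adjusted p = 0.0623). No pairing was used, because nothing in the labels says that a replicate number marks a shared animal, litter or day. Over all features tested, libraries with the same replicate number did not deviate together (correlations from -0.241 to 0.112 over the pairs of groups). The causes of these changes were not tested, beyond the fewer samples or more features that each setting implies. Without the filter all 65 members were tested. The interferon-linked score of miR-29a was 0.23 as a median over members and 0.30 as a mean.

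Over 48 pairs of a named gene and a comparison, 812 values were computed under alternatives. Of these, 769 kept direction and side of the threshold, 38 lost and 4 gained a call, 0 called values reversed, and 1 uncalled value changed sign (Trim59, day 4 against day 2 of NC-miR, -0.04 without the second day 4 library). Members of larger p were outside these pairs, and some of them changed sign with 1 library left out. With miR-29a against NC-miR, Trim15 ran from -1.45 to 0.03 and Trim25 from -0.51 to 0.06. No pseudocount alternative was run because the deposited values are already logarithms. The unknown read depth and floor limit what can be said of low genes, and 2 libraries per group limit all calls.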
